A study of Mus musculus with 56 samples.

Results

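The core circadian clock genes Arntl, Clock, Per1, Per2, Per3, Cry1, Cry2, Nr1d1 and Nr1d2 and the clock output gene Dbp were examined in mouse gastrocnemius muscle. They were taken by symbol from a table of read counts for 15539 genes, and 10 of 10 were listed. All 10 were among the 14321 genes with enough reads to be tested. The table covers 56 mice, which fall into 8 groups of 7 by sex, genotype label and wheel. The mice were C57Bl/6 animals on a chow diet, labelled as 5 months old. Control mice (C) carried floxed Elavl1 alleles, the gene for the RNA-binding protein HuR. HuRm-/- littermates (H) also carried Cre recombinase driven by the Mlc1f promoter, which acts in skeletal muscle fibres and leaves other cell types of the muscle with their HuR. Running wheels were given for 10 weeks, from week 10 to week 20 of life (E in the group name), and the remaining mice had locked wheels. The groups are MC, MCE, MH and MHE in males and FC, FCE, FH and FHE in females, and a mouse is named by its group and the number in its label, such as FH34. The hour at which a muscle was collected is not given in the sources used here.

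The clock is a feedback loop of transcription. ARNTL (also called BMAL1) and CLOCK bind E-box sequences as a pair and switch on the Per and Cry genes, whose proteins return to the nucleus and repress that pair. NR1D1 and NR1D2 (REV-ERB alpha and beta) repress Arntl through RORE sequences, and DBP activates genes that carry D-boxes. In muscle, as in most tissues, Arntl RNA peaks at about the opposite time of day from Dbp, Per and Nr1d RNA, so their levels depend on the hour of collection.

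Promoter sequences are shown for the members in which a letter match to a clock element was found. Whether a match goes with the level of a gene in these data was not tested. RefSeq promoter windows of 300 bases around a transcription start (build GRCm38.p6) were given for 9 of 10 members, all but Per2, and both strands were searched. The letters were CACGTG for the E-box, TTATGTAA or TTACGTAA for the D-box, and TAGGTCA or TGGGTCA for the core of the RORE. None of these motifs overlapped another in the windows printed, which are written 5′ to 3′ on the gene's strand with matches in capitals. A window of Per1 (chr11:69098699-69098998, plus strand) held an E-box that began 166 bases before the start, at position -166. The other Per1 window (chr11:69099902-69100201, plus strand) held no match. In the Cry1 window (chr10:85185005-85185304, minus strand) an E-box began at -60. The Per3 window (chr4:151044616-151044915, minus strand) held 2 D-boxes, at -205 and -158. An RORE core lay at 30 after the start in a window of Arntl (chr7:113207261-113207560, plus strand). The other Arntl window (chr7:113207215-113207514, plus strand) held no match. Ciart, a repressor of the ARNTL and CLOCK pair that is not among the members, is printed because it fell with Per1 and Per2 in running mice, and its window (chr3:95882179-95882478, minus strand) held 3 E-boxes at -116, -58 and -44.
Per1: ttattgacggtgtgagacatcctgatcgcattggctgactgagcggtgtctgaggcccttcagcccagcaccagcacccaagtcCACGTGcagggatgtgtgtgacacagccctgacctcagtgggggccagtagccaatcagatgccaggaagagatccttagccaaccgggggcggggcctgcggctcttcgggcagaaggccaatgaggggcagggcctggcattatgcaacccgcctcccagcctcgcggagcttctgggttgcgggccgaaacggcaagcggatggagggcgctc
Cry1: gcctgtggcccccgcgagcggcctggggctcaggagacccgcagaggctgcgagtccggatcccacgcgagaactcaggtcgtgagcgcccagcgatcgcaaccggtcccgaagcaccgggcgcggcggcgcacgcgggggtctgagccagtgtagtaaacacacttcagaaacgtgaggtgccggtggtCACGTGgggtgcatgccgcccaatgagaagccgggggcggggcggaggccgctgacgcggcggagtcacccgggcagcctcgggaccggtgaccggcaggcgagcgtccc
Per3: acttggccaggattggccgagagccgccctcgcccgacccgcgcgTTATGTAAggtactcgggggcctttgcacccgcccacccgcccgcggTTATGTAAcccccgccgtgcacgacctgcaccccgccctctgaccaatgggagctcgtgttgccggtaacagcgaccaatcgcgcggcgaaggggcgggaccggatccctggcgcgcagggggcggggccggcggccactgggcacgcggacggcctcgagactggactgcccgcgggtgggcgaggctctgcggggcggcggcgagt
Arntl: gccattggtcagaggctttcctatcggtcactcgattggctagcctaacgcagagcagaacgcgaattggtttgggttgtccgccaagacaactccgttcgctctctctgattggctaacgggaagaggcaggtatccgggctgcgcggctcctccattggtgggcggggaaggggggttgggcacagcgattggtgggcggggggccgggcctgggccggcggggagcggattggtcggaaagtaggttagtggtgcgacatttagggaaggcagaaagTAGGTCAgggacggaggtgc
Ciart: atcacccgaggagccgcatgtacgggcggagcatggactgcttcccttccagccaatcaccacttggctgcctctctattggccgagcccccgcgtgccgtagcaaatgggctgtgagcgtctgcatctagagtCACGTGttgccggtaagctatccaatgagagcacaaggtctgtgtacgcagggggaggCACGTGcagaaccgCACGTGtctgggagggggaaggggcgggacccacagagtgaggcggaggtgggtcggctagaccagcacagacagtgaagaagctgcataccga
Of 32851 promoter windows, 7.15% held the E-box, 1.06% the D-box and 6.45% the RORE core. No match was found in the windows of Clock, Cry2, Nr1d1, Nr1d2 or Dbp, which says only that these letters are not within those 300 bases. Among clock genes beyond the members, windows of Tef and Bhlhe41 also held an E-box, and neither gene passed for the wheel. Windows of Hlf and Usp2, which fell with running, held no match. Nfil3 had an RORE core and Timeless a D-box. A match is a run of letters and was not tested for binding.

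Total counts ran from 6639782 to 21633091 per mouse, with a median of 12380363. Elavl1, the targeted gene, was not lower under the knockout label: its medians were 54, 50.5, 44.5 and 47.9 CPM (counts in each 1000000 of the scaled library) in MC, MH, FC and FH and 54.4, 61.3, 51.5 and 52.8 CPM in MCE, MHE, FCE and FHE. The averaged difference was 0.13 on the log2 scale (SE 0.06, limma adjusted p = 0.15), and in running males Elavl1 was higher under the knockout label by 0.44 (limma adjusted p = 0.0242). The paper, which lists qPCR primers for Elavl1, reports lower Elavl1 mRNA in gastrocnemius of HuRm-/- mice than of controls. Which exons the reads cover is not given, so the libraries are referred to by their labels. Summed markers of skeletal muscle fibres ran from 96300 to 153000 CPM. Liver markers summed to between 5.99 and 2890 CPM and adipocyte markers to between 2200 and 6370 CPM; the source of these reads was not tested. No 2 libraries of a group were alike within counting noise, since the smallest chi-square of a pair was 3.69 per degree of freedom over 168 pairs.

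The members differed widely in how much they varied from mouse to mouse. Dbp, a transcription factor at the output of the clock, ran from 6.1 CPM in FCE5 to 103 CPM in MH11, a 17-fold range. Per2, a repressor of the loop, ran from 0.92 CPM in FHE3 to 21.5 CPM in MC20, and its lowest count in any mouse was 7 reads. Arntl ran from 2.23 CPM in FH34 to 24 CPM in FCE9. Per1 spanned 7.49-fold and Per3 5.88-fold between the lowest and the highest mouse. The other 5 members spanned 2.05-fold (Clock) to 2.6-fold (Cry2). Within groups the SD on the log2 scale was 0.81 for Per2, 0.68 for Dbp, 0.62 for Per1, 0.56 for Per3 and 0.51 for Arntl, against a median of 0.31 over all genes tested. The within-group SD of Per2 was larger than that of 91.6% of genes and that of Dbp larger than that of 84%, whereas the SD of Clock, 0.19, was larger than that of 19.8%.

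Single mice stood at opposite ends for several members at once. FH34 had the lowest Arntl (2.23 CPM, 33 reads) and the lowest Clock (27 CPM) of all 56 mice together with the highest Nr1d2 (85.1 CPM). FCE5 had the highest Clock (55.4 CPM) together with the lowest Dbp (6.1 CPM), Per3 (4.61 CPM) and Nr1d2 (37.5 CPM). The difference between Dbp and Arntl in log2 CPM placed every mouse on 1 axis: it was 4.98 in FH34 and -1.95 in FCE5. By group its lowest, median and highest values were 2.16, 2.77 and 3.46 in MC, 0.29, 1.82 and 2.56 in MCE, 1.87, 2.64 and 3.82 in MH, and 0.77, 1.44 and 2.46 in MHE. In females they were 0.13, 2.21 and 3.23 in FC, -1.95, 1.46 and 3.02 in FCE, 1.01, 1.76 and 4.98 in FH, and -0.24, 0.09 and 2.32 in FHE. The median of each running group lay below that of the locked group of the same sex and label, and each such pair of groups overlapped.

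**Figure D1:**
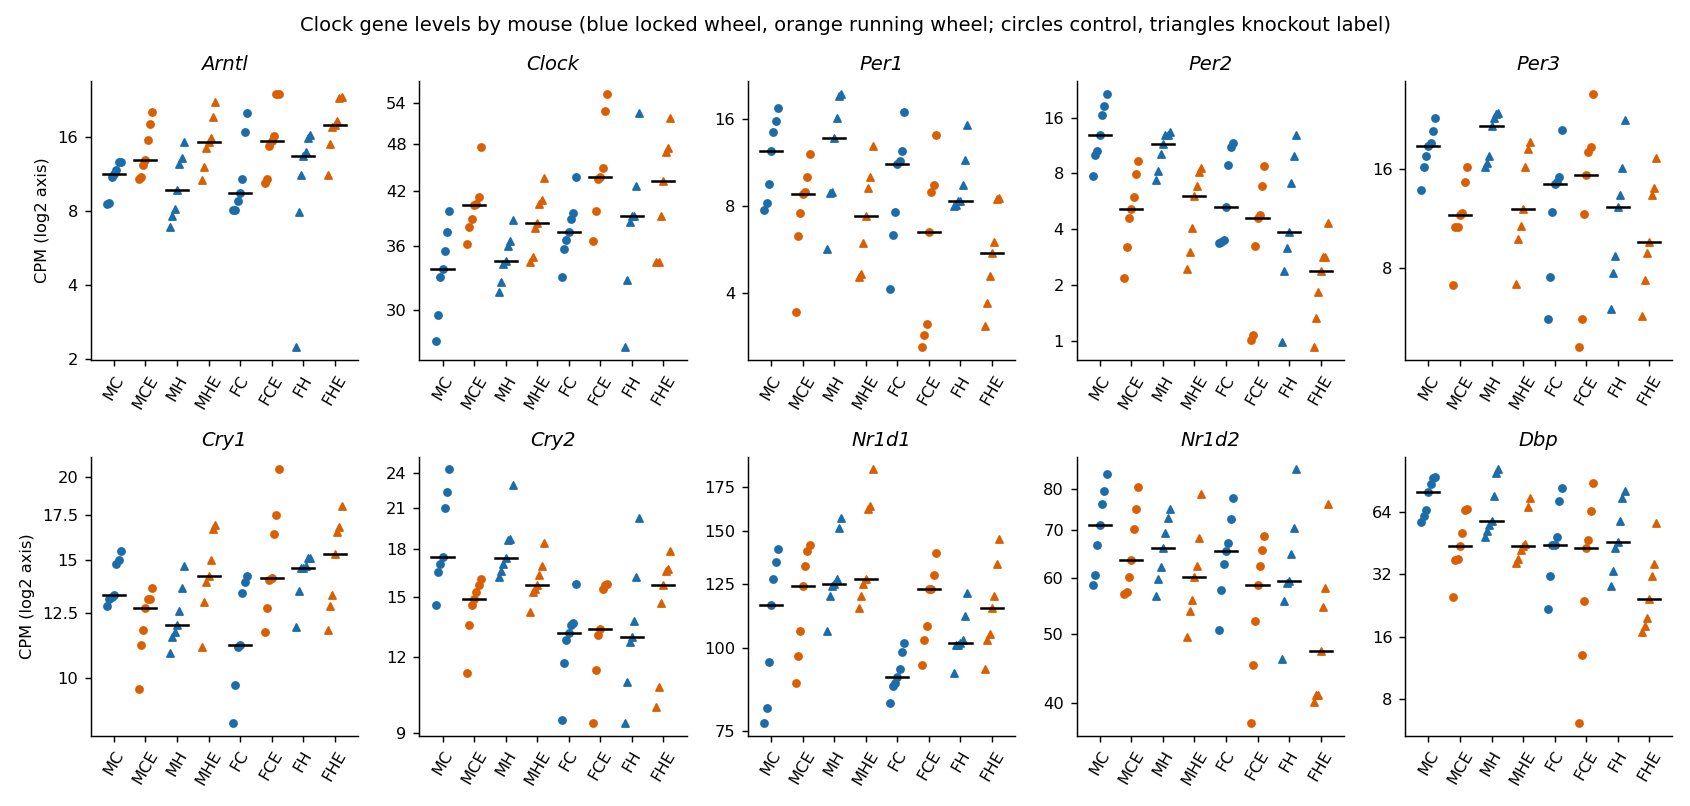
CPM of each member (log2 axis) in each mouse by group; bars are group medians of 7 mice, blue is locked, orange running, circles control and triangles the HuR knockout label. Dbp and Per2 show the widest vertical spread within groups and Arntl has a single low mouse in FH at 2.23 CPM.

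Does the position of a mouse on this axis vary among mice of the same group? To ask this, group means were removed and each member was correlated with Arntl over 56 mice, with 100000 permutations within groups and adjustment over the 9 relations. The activator Clock rose with Arntl (Pearson's r = 0.67, Spearman's rho = 0.65, both adjusted permutation p at most 2.25e-05). The nuclear receptor Nr1d2 ran opposite to Arntl (r = -0.67, rho = -0.67, adjusted permutation p = 2.25e-05), as did Per3 (r = -0.66, rho = -0.63) and Dbp (r = -0.61, rho = -0.68) at that same adjusted p for r. Per2 (r = -0.59, rho = -0.58, adjusted permutation p = 0.000108), the repressor Cry2 (r = -0.57, rho = -0.47, adjusted permutation p = 0.00012) and Per1 (r = -0.40, rho = -0.49, adjusted permutation p = 0.0021) were also opposite. Raw permutation p-values for r ran from 1e-05, the smallest that the permutations can give, to 0.00163 among these 7. For the adjusted rho the largest p of the 7 was 0.000656. Cry1 (r = 0.23, rho = 0.23, adjusted permutation p = 0.0891 and 0.135) and Nr1d1 (r = -0.09, rho = -0.05, adjusted permutation p = 0.412 and 0.711) did not pass. Without FCE9 and FH34, the mice farthest from the median of Arntl, r was 0.55 for Clock, -0.49 for Per1, -0.56 for Per2, -0.63 for Per3, -0.49 for Cry2, -0.67 for Nr1d2 and -0.65 for Dbp. For comparison, 90% of all genes tested had an r with Arntl between -0.33 and 0.39.

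The relations with Arntl were also computed within each wheel condition and each sex. Dbp against Arntl had r = -0.62 in locked and -0.71 in running mice, and -0.49 in males and -0.64 in females. Nr1d2 against Arntl had r = -0.72 in locked and -0.71 in running mice. In locked mice alone Per1 (r = -0.34) and Per2 (r = -0.52) against Arntl had an adjusted permutation p of 0.0601. Within the 8 groups of 7, r with Arntl was negative in 8 of 8 for Per1, Per3, Nr1d2 and Dbp, in 7 of 8 for Per2 and Cry2, and positive in 7 of 8 for Clock. Among the members that ran opposite to Arntl, Dbp and Per3 had r = 0.88, Per2 and Per3 0.82, Dbp and Per2 0.81, Dbp and Nr1d2 0.78 and Per2 and Nr1d2 0.74. Nr1d1 stood outside this pattern in males, where its r with Nr1d2 was -0.27, and not in females, where it was 0.73. The difference of those values between the sexes was not tested. All 45 pairs share the same libraries, so depth and composition are common to both members of a pair. Nr1d1 overlaps Thra on the opposite strand by 1075 bases, and whether strand was used in counting is not given. The r between Nr1d1 and Thra within groups was 0.13. Whether reads in the overlap were counted for the wrong gene was not tested. Per3 lies within Camta1 on the same strand, and Dbp overlaps Sphk2 on the opposite strand by 737 bases, so reads there could be split between the genes.

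**Figure D2:**
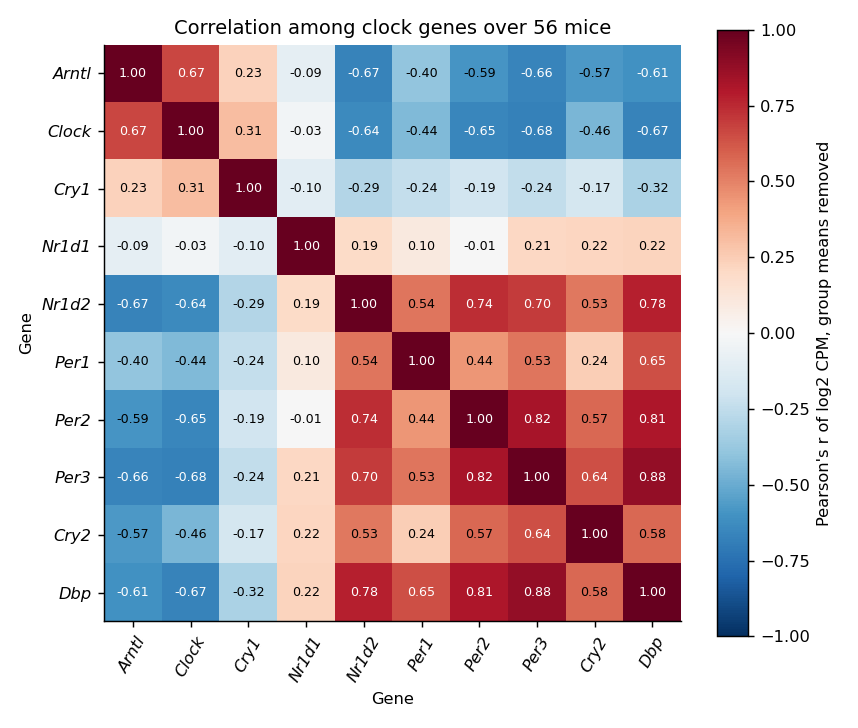
Pearson's r between members over 56 mice (log2 CPM, group means removed), blue negative and red positive, with r written in each cell. Nr1d2, Per1, Per2, Per3, Cry2 and Dbp form a positive block that is negative against Arntl and Clock, and Nr1d1 lies between -0.10 and 0.22 against every member.

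**Figure D3:**
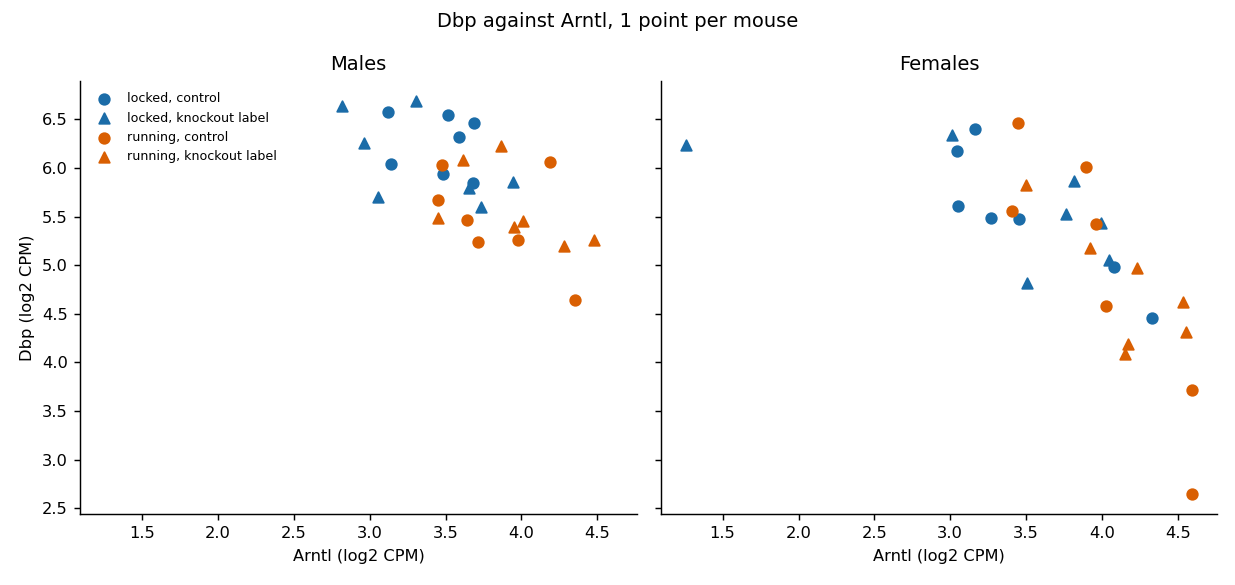
Dbp against Arntl in log2 CPM, 1 point per mouse, males left and females right, blue locked and orange running, circles control and triangles the knockout label. Mice with high Arntl had low Dbp in both panels, and the mouse with the lowest Arntl (2.23 CPM) and that with the lowest Dbp (6.1 CPM) are both females.

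All 10 members differed somewhere among the 8 groups (limma F test, adjusted p from 2.26e-05 for Per2 to 0.0266 for Cry1), where 40.4% of all genes did. The groups accounted for 51% of the variance of Per2, 41.1% for Cry2, 40.2% for Nr1d1 and between 27.6% and 36.6% for the other 7, against a median of 25.1% over all genes tested. Per2 was highest in MC (14 ± 5 CPM, SD, n = 7) and MH (10.9 ± 2.38), then FC (6.74 ± 3.72), FH (5.73 ± 4.33), MHE (5.59 ± 2.45), MCE (5.48 ± 2.52) and FCE (4.34 ± 2.86), and lowest in FHE (2.35 ± 1.13). Dbp followed MC (77.2 ± 15.7), MH (70.4 ± 23), FH (52.1 ± 20.2), MHE (49.6 ± 15.1), FC (49.6 ± 21.8), MCE (46.7 ± 15.3), FCE (40.7 ± 29.2) and FHE (29 ± 14). Arntl had nearly the reverse order, with FHE (18.1 ± 4.27), FCE (16.5 ± 5.58), MHE (15.7 ± 3.97) and MCE (14.4 ± 3.67) above FC (11.7 ± 4.72), FH (11.5 ± 5), MC (11 ± 1.74) and MH (10.5 ± 3.17). In each of these orders the ranges of neighbouring groups overlapped.

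Running mice had higher Arntl and Clock and lower Per1, Per2 and Dbp than locked mice. Averaged over sex and label, 5 of 10 members passed, where 5.96% of all genes did. Per2 ranged over 0.983, 9.99 and 21.5 CPM (lowest, median, highest) in the 28 locked mice and over 0.92, 4.19 and 9.29 CPM in the 28 running mice. The fall was to 50.2% of the locked level (log2 fold change -0.99, SE 0.20, limma adjusted p = 0.000869). Dbp ranged over 21.8, 58 and 103 CPM in locked and 6.1, 39.9 and 88.1 CPM in running mice (-0.65, SE 0.16, limma adjusted p = 0.00662). Per1 ranged over 4.12, 10.4 and 19.5 CPM and 2.6, 6.93 and 14 CPM (-0.67, SE 0.15, limma adjusted p = 0.00387). Arntl rose 1.49-fold, from 2.23, 11.1 and 20 CPM to 10.4, 15.5 and 24 CPM (0.58, SE 0.13, limma adjusted p = 0.00318). Its partner Clock rose 1.14-fold, from 27, 36.3 and 52.4 CPM to 34.4, 40.5 and 55.4 CPM (0.19, SE 0.05, limma adjusted p = 0.0109). In all 5 genes the 2 sets of mice overlapped.

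The other 5 members did not pass. Per3 had a log2 fold change of -0.33 (95% interval -0.60 to -0.07, limma adjusted p = 0.129), Nr1d2 -0.19 (limma adjusted p = 0.0568) and Cry2 -0.10 (limma adjusted p = 0.452). Nr1d1 was 0.18 (limma adjusted p = 0.0532), opposite in sign to its paralog Nr1d2, and Cry1 was 0.10 (limma adjusted p = 0.284). Nr1d1 passed with the edgeR quasi-likelihood test (adjusted p = 0.0397) and with DESeq2 (adjusted p = 0.0328), and Nr1d2 with DESeq2 (adjusted p = 0.0408) but not with edgeR (adjusted p = 0.0687).

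Liver markers moved with the wheel on average: 5 of 9 were lower in running mice, where 5.96% of all genes passed. Their median log2 fold change was -1.97. In single pairs 1 was lower in FCE against FC and 0 passed in MCE against MC, MHE against MH or FHE against FH. The summed liver level ran from 10.8 to 2890 CPM in locked groups and from 5.99 to 456 CPM in running groups. Of 10 skeletal muscle fibre markers, 3 were higher and 4 lower in running mice, with a median of -0.10. With liver and adipocyte markers as covariates, 5 members passed and were Arntl, Clock, Per1, Per2 and Dbp, as without them. For the fits with covariates here, the share of all genes passing was not recorded. Bulk libraries do not separate fewer cells of a type from less RNA per cell. With Arntl itself as a covariate, which removes what a member shares with Arntl, 2 members passed, Per2 (-0.57) and Nr1d1 (0.20), while Dbp was at -0.23 (limma adjusted p = 0.341) and Per1 at -0.46 (limma adjusted p = 0.0515). In that fit the wheel and the Arntl level are entered together, and the hour of collection was not a covariate, so wheel and hour cannot be told apart from these values.

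Within single pairs of groups of 7, 1 member passed in MCE against MC, Per2 at -1.34 (SE 0.31, limma adjusted p = 0.00939), where 3.24% of all genes did. In FCE against FC it was Cry1 at 0.36 (limma adjusted p = 0.0416; 8.74% of genes), and this call was lost without any 1 of 9 of those 14 mice, the value being 0.27 without FCE1 (limma adjusted p = 0.167). Arntl passed in FHE against FH at 0.88 (limma adjusted p = 0.0338; 3.85% of genes), and without FH34 it was 0.46 (limma adjusted p = 0.225); leaving out FH31, FHE10, FHE2 or FHE8 also lost the call, with values from 0.81 to 0.87. In MHE against MH limma, edgeR and DESeq2 each called 0 members, 4 had an unadjusted limma p under 0.05, and 0.0419% of genes passed.

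**Figure D4:**
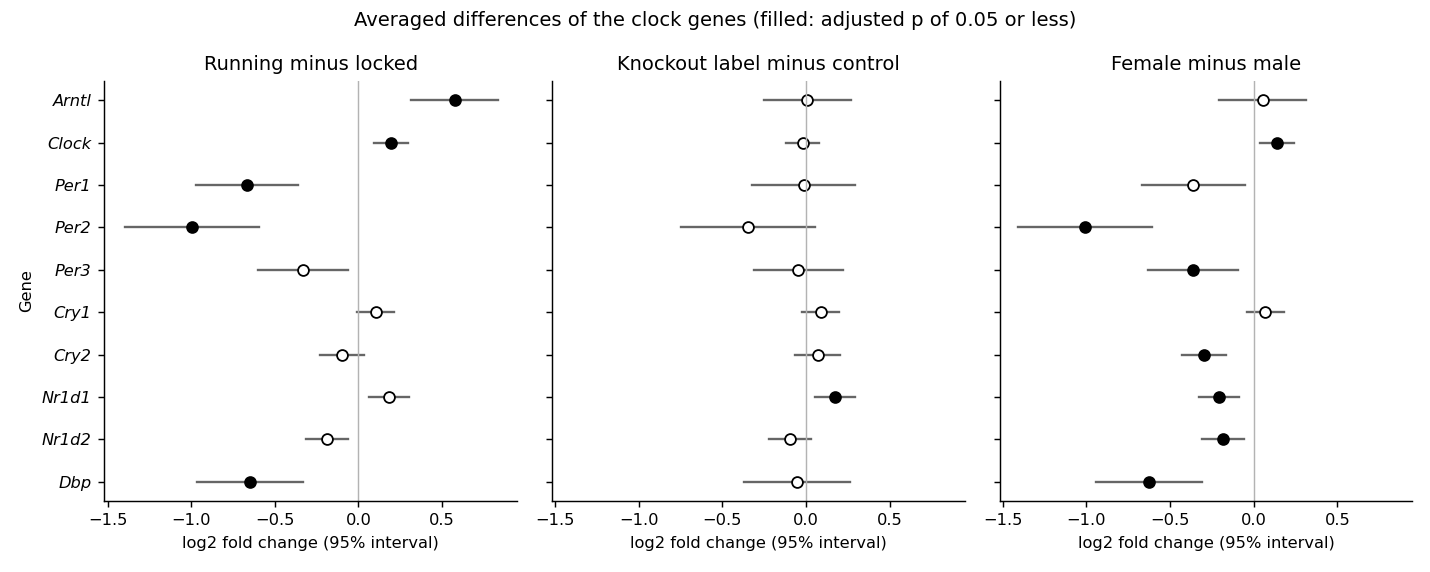
Averaged log2 fold changes of the members with 95% intervals over 56 mice for the wheel, the genotype label and sex on a common axis; filled points have an adjusted p of 0.05 or less. Filled points number 5 for the wheel, 1 for the label and 7 for sex.

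Few clock genes passed for the genotype label, which does not show that the others were unchanged. Averaged over sex and wheel, 1 of 10 members passed, where 11.8% of all genes did, so the share was near the background. That gene was Nr1d1, which ranged over 77.1, 105 and 143 CPM in the 28 control mice and 91.9, 120 and 186 CPM in the 28 mice with the knockout label (log2 fold change 0.18, SE 0.06, limma adjusted p = 0.0426). The sets overlapped, and the call was lost on leaving out any of 21 of the 56 mice, with an adjusted p of 0.0741 without MC20. Thra, which shares bases with Nr1d1 on the other strand, was at 0.00 (SE 0.04), and reads in the shared bases were not examined. Arntl was at 0.01 (95% interval -0.25 to 0.27), Dbp at -0.05 (-0.37 to 0.26) and Per2 at -0.35 (-0.75 to 0.05). In the 4 single comparisons limma, edgeR and DESeq2 each called 0 members. Unadjusted limma p-values under 0.05 numbered 1 in MH against MC, where 1.15% of genes passed, 1 in FH against FC (0.384%), 2 in MHE against MCE (2.63%) and 0 in FHE against FCE (0%).

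Females had lower Per2, Dbp, Per3, Cry2, Nr1d1 and Nr1d2 and higher Clock than males when all numbers were pooled. On average 7 of 10 members passed, where 33% of all genes did. Per2 ranged over 2.18, 8.22 and 21.5 CPM in 28 males and 0.92, 3.45 and 12.8 CPM in 28 females, a level of 49.7% of that in males (log2 fold change -1.01, SE 0.20, limma adjusted p = 5.16e-05). Dbp ranged over 24.8, 57.6 and 103 CPM and 6.1, 42.9 and 88.1 CPM (-0.63, SE 0.16, limma adjusted p = 0.00135). Cry2, the cryptochrome that ran opposite to Arntl, had 11.3, 16.4 and 24.3 CPM against 9.34, 13.4 and 20.2 CPM (-0.30, SE 0.07, limma adjusted p = 0.000263). Smaller differences were found in Per3 (-0.36, limma adjusted p = 0.0296), Nr1d1 (-0.21, limma adjusted p = 0.00441), Nr1d2 (-0.19, limma adjusted p = 0.0166) and Clock (0.14, limma adjusted p = 0.0245). Arntl was at 0.06 (95% interval -0.20 to 0.32), Cry1 at 0.07 (-0.04 to 0.18) and Per1 at -0.36 (limma adjusted p = 0.0629). All these sets overlapped, and the call for Per3 was lost without FCE5, FCE9 or FHE3 (limma adjusted p = 0.0514 without FCE5). Per3 did not pass with the edgeR quasi-likelihood test (adjusted p = 0.0782) or DESeq2 (adjusted p = 0.0858).

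Adipocyte markers moved with sex, 8 of 10 being higher in females with a median of 1.11 on the log2 scale, where 33% of all genes passed. Also higher in females were 5 of 6 erythroid and 3 of 6 leukocyte markers. Of 10 skeletal muscle fibre markers, 5 were lower in females and 0 higher, with a median of -0.15. The summed adipocyte level was 2200 to 4980 CPM in males and 3920 to 6370 CPM in females. With liver and adipocyte markers as covariates limma called 0 members for sex, Per2 being at -0.69 (adjusted p = 0.0897), Dbp at -0.35 (adjusted p = 0.412) and Cry2 at -0.20 (adjusted p = 0.226). Those markers separate the sexes, and their part in the difference was not tested further. How many of all genes passed for sex in that fit was not recorded, so the 0 has no background beside it. In single comparisons Per2 (-1.18) and Cry2 (-0.54) passed in FC against MC, where 21.5% of genes did, and Per2 (-1.25), Per3 (-0.78) and Cry2 (-0.42) in FH against MH (19.3%). In FH against MH the call for Per3 was lost without FH13, FH14 or FH17 (limma adjusted p up to 0.0656) and that for Cry2 without FH14, FH30 or MH9 (up to 0.0629). In running mice limma and edgeR called 0 members. DESeq2 called Cry1 in FCE against MCE (7.65% of genes by limma, 2 members with an unadjusted p under 0.05) and Per2 in FHE against MHE (5.57%, 4 such members).

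Limma called 0 members for any interaction, and edgeR 0 and DESeq2 1. The wheel by sex term passed in 13.7% of all genes. Among the members 2 had an unadjusted p under 0.05, Per3 at 0.68 (SE 0.27, limma adjusted p = 0.0822) and Cry2 at 0.37 (SE 0.13, limma adjusted p = 0.0551). Per3 medians were 19 CPM in locked and 11.7 CPM in running males but 12.9 and 12.6 CPM in females. The wheel by genotype and genotype by sex terms each passed in 0.00698% of genes, with 0 members at an unadjusted p under 0.05. The wheel by genotype term passed in 0.0349% of genes in males and 0% in females, with 1 member at an unadjusted p under 0.05 in each sex, Cry1.

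The mouse number was the only label that could carry an order, and the labels do not say what it stands for. Among females, runners bear numbers 1 to 10 and 21 to 28 and locked mice 12 to 20 and 30 to 34. In females the clock genes followed the number, within groups, across 8 of 10 members at an adjusted permutation p of at most 0.05. Dbp rose with the number (Pearson's r = 0.78, Spearman's rho = 0.77, n = 28, permutation p = 3e-05 and 4e-05, adjusted 0.0002 and 0.0004) and Arntl fell with it (r = -0.60, rho = -0.65, permutation p = 0.00048 and 0.00041, adjusted 0.000743 and 0.00082). Without the 2 females farthest from the median number, r was 0.81 for Dbp and -0.66 for Arntl. Nr1d1, which did not follow Arntl over all mice, rose with the number in females (r = 0.69, rho = 0.64, permutation p = 0.00015 and 0.00095, adjusted 0.000375 and 0.00119). In males the signs of Per2, Nr1d2 and Dbp were opposite to those in females, with Per2 at r = -0.62 (rho = -0.55, n = 28, permutation p = 0.00203 and 0.00641, adjusted 0.0203 and 0.0422) and Nr1d2 at r = -0.55 (rho = -0.52, permutation p = 0.00687 and 0.00845, adjusted 0.0343 and 0.0422). Arntl did not pass in males (r = 0.18, rho = 0.19, adjusted permutation p = 0.67 and 0.628). Over both sexes 7 of 10 passed; of these, Arntl, Clock, Per3 and Dbp had opposite signs of r in the 2 sexes, and Per1, Cry1 and Nr1d1 had the same sign.

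A split after number 20, chosen after the data were seen, describes the same relation in levels. It uses the same mice and values as the correlations, so it is not a separate test of them. In females, locked mice had Dbp at 21.8, 43.1 and 58.2 CPM (lowest, median, highest) for 9 mice numbered 20 or lower and 46, 75.3 and 84.1 CPM for 5 mice numbered higher. Running females had Dbp at 6.1, 18.9 and 31.3 CPM for 8 mice and 36, 51.7 and 88.1 CPM for 6, so these 2 sets did not overlap. Arntl in the same running females was 16.1, 20.8 and 24 CPM against 10.4, 12.9 and 15.4 CPM, again without overlap. Averaged over the 4 female groups, 6 members passed, where 0.74% of all genes did: Dbp (1.17, limma adjusted p = 3.37e-05), Per2 (1.29), Per3 (0.92) and Nr1d2 (0.40) were higher and Arntl (-0.79, limma adjusted p = 0.0045) and Clock (-0.32) lower above number 20. In males limma called 0 members, 4 had an unadjusted p under 0.05, and 0.377% of genes passed; male running Per2 was 4.06, 7.42 and 9.29 CPM for 8 mice and 2.18, 3.12 and 5.97 CPM for 6 above number 20. The difference of the number effect between the sexes passed in 6 members, where 0.552% of genes did.

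**Figure D5:**
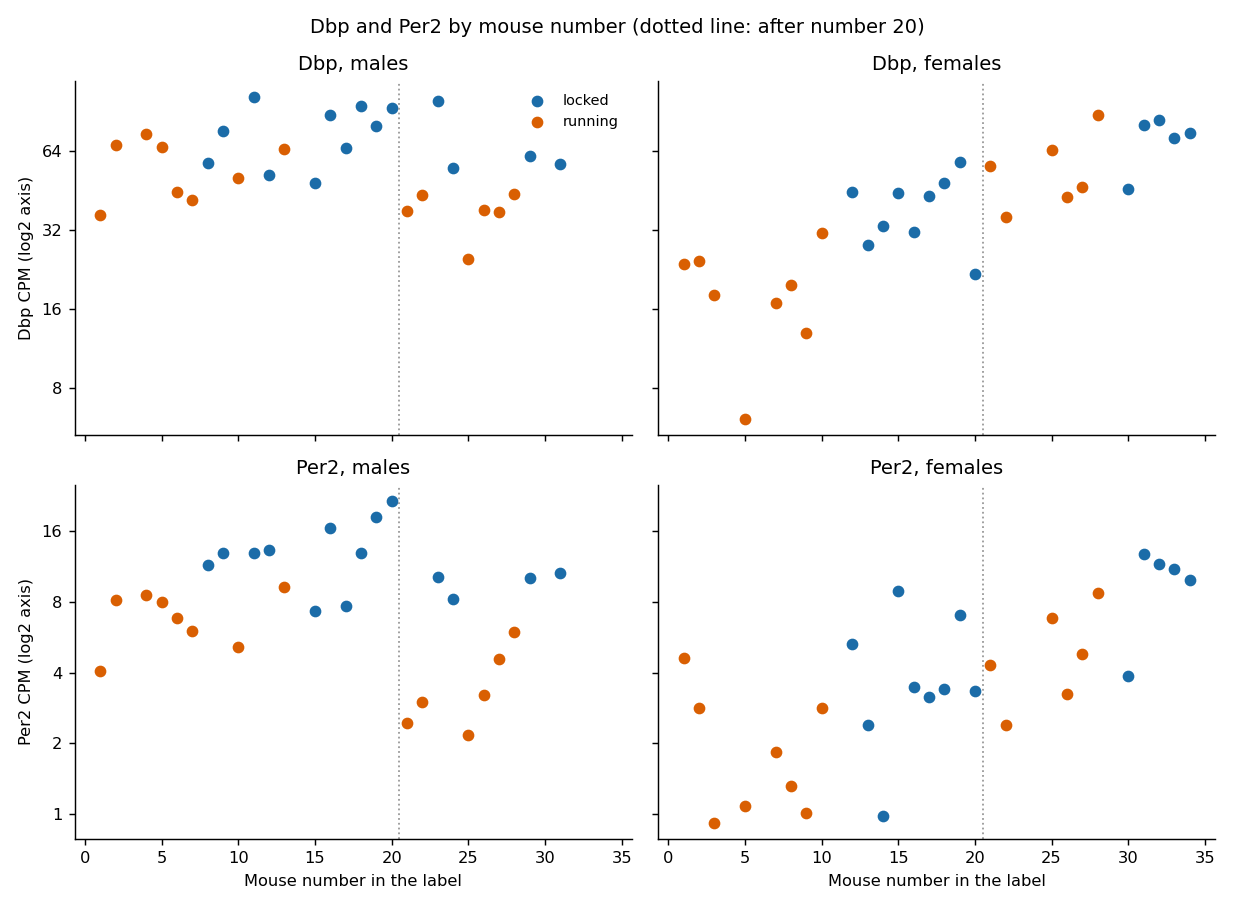
Dbp and Per2 in CPM (log2 axis) against the mouse number in the label, males left and females right, blue locked and orange running, with a dotted line after number 20. Dbp of female runners lies between 6.1 and 31.3 CPM up to number 20 and between 36 and 88.1 CPM after it, and the median Per2 of male runners is 7.42 CPM up to number 20 and 3.12 CPM after it.

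Each number block held both locked and running mice. In females, however, the runners of a block all bear lower numbers than its locked mice. In males the same holds within each genotype label. Wheel and number therefore cannot be told apart by this split in either sex. Per1, Per2 and Dbp passed for the wheel in both blocks, and Clock in neither (0.19, limma adjusted p = 0.0539, and 0.20, limma adjusted p = 0.172). Among mice numbered 20 or lower, 5 members passed for the wheel, with Dbp at -0.78 (SE 0.14, limma adjusted p = 0.00179), Arntl at 0.51 (SE 0.12, limma adjusted p = 0.0128) and Per2 at -0.89 (SE 0.24, limma adjusted p = 0.0466). Above number 20, 4 passed, with Per2 at -1.37 (SE 0.23, limma adjusted p = 0.00332) and Dbp at -0.64 (SE 0.15, limma adjusted p = 0.0319), and Arntl was at 0.74 (SE 0.20, limma adjusted p = 0.0683). With the number block of each sex as covariates 7 members passed for the wheel, now with Per3 (-0.37, limma adjusted p = 0.0273) and Nr1d2 (-0.19, limma adjusted p = 0.0117). The share of all genes passing was not recorded for the fits within blocks or with these covariates, so these counts have no background beside them.

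The sex differences depended on the number block. Among mice numbered 20 or lower, 9 members passed for sex, with Per2 at -1.82 (SE 0.24, limma adjusted p = 3.96e-07), Dbp at -1.33 (SE 0.14, limma adjusted p = 5.46e-09) and Arntl at 0.45 (SE 0.12, limma adjusted p = 0.00289). Above number 20 limma called 0 members, and 3 had an unadjusted limma p under 0.05. Those 3 were Nr1d1 at -0.20 (SE 0.07), Nr1d2 at 0.21 (SE 0.08) and Arntl at -0.49 (SE 0.20), while Per2 was at 0.20 (SE 0.23) and Dbp at 0.28 (SE 0.15). With the number block of each sex as covariates 4 members passed for sex, Per2, Dbp, Cry2 and Nr1d1. For sex, too, the share of all genes passing in these fits was not recorded, and fewer mice are numbered above 20. What the number stands for is not given, whether a day, an hour or a cohort of collection or something else. The hour of collection is not given either, so sex and hour cannot be told apart from these values.

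Among 21 further clock genes, 20 were in the table and tested. For the wheel 2 rose and 3 fell, where 5.96% of all genes passed. Npas2, a relative of Clock that can pair with ARNTL, rose by 0.66 (SE 0.21, limma adjusted p = 0.0455) and Nfil3, a repressor at D-boxes, by 0.52 (SE 0.12, limma adjusted p = 0.00352). Ciart, with its 3 E-boxes, was at -1.12 (SE 0.25, limma adjusted p = 0.00257), Hlf, a D-box activator related to Dbp, at -0.47 (SE 0.09, limma adjusted p = 0.000687) and Usp2, a deubiquitinase, at -0.18 (SE 0.06, limma adjusted p = 0.048). The median over the 20 genes was -0.06, against 0.01 over all genes tested. For sex 1 was higher in females, Npas2 at 0.64, and 13 were lower, with a median of -0.24, where 33% of all genes passed. Among the lower genes were Ciart (-0.99), Bhlhe41 (-0.91), Hlf (-0.58), Usp2 (-0.53), Tef (-0.40), Fbxw11, Gsk3b, Btrc, Csnk1e, Rora, Prkaa2 and Csnk1d. For the genotype label Nono was higher by 0.18 and Bhlhe41 (-0.48), Csnk1e (-0.16) and Rora (-0.15) were lower, where 11.8% of all genes passed.

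Genes that the muscle clock is known to drive were also listed, and 11 were tested. Of these, Alas1, the first enzyme of haem synthesis (0.20, limma adjusted p = 0.038), and Hk2, the muscle hexokinase (0.22, limma adjusted p = 7.24e-06), rose with running and 0 fell, with a median of 0.03, where 5.96% of all genes passed. Pdk4 was at 0.39 (limma adjusted p = 0.421) for the wheel. For sex 2 of the 11 were higher in females and 6 lower, where 33% of all genes passed. For the genotype label 1 was higher and 2 were lower, where 11.8% of all genes passed. Of 10 genes that respond to glucocorticoids, hormones that also follow the time of day, 1 rose with running, Zbtb16 (0.37, limma adjusted p = 0.0012), and 0 fell. In females 4 were lower, Sgk1 (-0.77), Fkbp5 (-0.68), Tsc22d3 (-0.44) and Zbtb16 (-0.23), and Cdkn1a was higher by 0.42, where 33% of all genes passed for sex. Of 10 immediate early genes limma called 0 for the wheel.

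By likeness over 56 mice with group means removed, the 6 genes closest to Arntl among 14311 were Pdk4 (r = 0.76, rho = 0.67), Wwtr1 (0.74), Ndufa1 (0.73), Pnrc1 (0.72), Atl2 (0.71) and 9430038I01Rik (0.70). Pdk4 encodes a kinase that inhibits pyruvate dehydrogenase. The 6 most opposite were Usp2 (r = -0.71), Cpe (-0.67), Cep85l (-0.64), Cand2 (-0.64), Micu3 (-0.63) and Tef (-0.63), the last a D-box activator like Dbp. Closest to Dbp were Coq10b (r = 0.84), Usp2 (0.81), Ciart (0.80), Hlf (0.79), Bhlhe40 (0.69) and Eepd1 (0.67). Among the most opposite to Dbp were Nfil3 (-0.77), Ypel2 (-0.70), Pim1 (-0.68), Vgll2 (-0.64) and Sdc4 (-0.64). These values are descriptions over the same 56 libraries.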

How the data were processed

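RNA from snap-frozen gastrocnemius of 56 mice was sequenced, 1 library per mouse. The authors deposited raw counts (integer reads per gene, not normalized); genes with few reads are not listed, the smallest total of a gene over all mice being 168. The labels name a 3′ end library kit, the paper stranded total RNA. The submitters' processing notes name GRCm38, R 4.0.3 and edgeR 3.38.4; aligner and strand setting are not given in the sources used here. Groups came from the labels, and all sample columns were used.

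Counts were scaled by TMM (edgeR 4.0.16 in R 4.3.3), filtered with filterByExpr, and fitted with voom and limma 3.58.1 as 8 group means over 56 mice; voom was added to the study's TMM and limma because the values are counts. Genes were called at 0.05 after Benjamini-Hochberg adjustment over 14321 genes. A symbol from GENCODE M21 was found for 15503 of 15539 genes, and member coordinates are on GRCm38. Levels are CPM of the TMM-scaled library, with a prior count of 2 for log2 CPM; all fold changes are log2 unless stated. Correlations used group-centred log2 CPM and two-sided permutations within groups. The labels name separate mice, so replicates are animals. Counting error is largest for genes with few reads.

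The members, gene lists and tests were chosen with earlier results of these data known, and the split after mouse number 20 likewise. The text names all members, further clock genes that passed, and the 6 genes most and least like Arntl and like Dbp, except items that are not reported here. Alternatives were other scalings (DESeq2 1.42.0 size factors, upper quartile), edgeR's quasi-likelihood test, DESeq2, limma trend, no or a stricter filter, quality weights, covariates for liver and adipocyte markers, Arntl or mouse number, leaving out each mouse, and mouse number as a replicate block. Fits were tested on simulated counts. The numbers shared across sexes did not pair the mice, since deviations of 12 same-numbered pairs correlated between -0.20 and 0.18.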

Additional observations from a re-analysis of the deposited data

Results flagged for a closer look

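Cry2 in mouse MH9 was 22.9 CPM, while the other 6 mice of MH lay between 16.2 and 18.7 CPM, a gap large enough for that mouse to stand apart from its group by Dixon's ratio. Of 80 combinations of member and group examined, 1 had such a mouse, and chance gives about 1 in 20. Without MH9 the averaged sex difference of Cry2 was -0.28 and still passed.

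The difference between mice numbered over 20 and those numbered 20 or lower was not the same in females and males for 6 members (limma interaction terms, female minus male, on the log2 scale). The terms were 1.94 for Per2 (adjusted p = 0.000406), 1.54 for Dbp (adjusted p = 0.000227), 0.98 for Per3 (adjusted p = 0.0213) and 0.63 for Nr1d2 (adjusted p = 0.000397). They were -0.98 for Arntl (adjusted p = 0.0234) and -0.37 for Clock (adjusted p = 0.0285). The split was chosen after the data were seen, and the labels do not say what the number stands for.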

How the results depend on the processing

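Limits came from small groups, from low counts in Per2 (7 reads in 1 mouse, which a filter of at least 10 counts in every mouse removes from testing) and from labels without an hour of collection. Settings that use the mouse number within each sex or in 1 block only were added after seeing the data. With Arntl as a covariate (Dbp for Arntl), members called were 2 for the averaged wheel (5 in the main fit), 8 for sex in single comparisons (5), 2 for interactions (0) and 6 for any difference (10). With liver and adipocyte markers as covariates they were 0 for averaged sex (7), 0 for sex in single comparisons and 5 for any difference. At an adjusted p of 0.1 they were 5 for the wheel in single comparisons (3), 9 for sex in single comparisons and 2 for interactions. DESeq2 gave 5 for the wheel in single comparisons and 1 interaction, and its size factors in voom 1 interaction. The edgeR quasi-likelihood test gave 0 for the averaged genotype label (1) and 3 for sex in single comparisons. Quality weights gave 7 for the wheel and 8 for sex in single comparisons and 2 interactions. At least 10 counts in every mouse, and the number over 20 as a covariate, each gave 1 interaction. Fits on only the 14 mice compared gave 9 for sex in single comparisons. The cause of these changes was not tested.

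With the number within each sex as covariates, 7 calls were made for the wheel in single comparisons, 4 for averaged sex and 8 for sex in single comparisons. In mice numbered 20 or lower the counts were 1 for the wheel in single comparisons, 0 for the averaged label and 13 for sex in single comparisons; above 20 they were 0 for the wheel, 1 for the label and 1 for sex in single comparisons, 0 for averaged sex and 4 for any difference, on fewer mice. Above 20 the sex difference turned direction in Clock (-0.057), Per2 (0.20), Per3 (0.20), Nr1d2 (0.21) and Dbp (0.28), and for Per2 in FC against MC (0.13). In males alone 2 members passed against the number (7 over both sexes), and r turned in Arntl (0.18), Clock (0.14), Per2 (-0.62), Per3 (-0.12), Nr1d2 (-0.55) and Dbp (-0.47). In locked mice alone Per1 and Per2 against Arntl did not pass.

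Without each mouse in turn the counts ran from 5 to 7 for the averaged wheel, 2 to 4 for the wheel in single comparisons, 0 to 1 for the averaged label, 0 to 0 for the label in single comparisons, 6 to 8 for averaged sex, 3 to 7 for sex in single comparisons, 0 to 2 for interactions and 9 to 10 for any difference. The lowest for sex in single comparisons was without FH14. Mouse number as a replicate block changed no call: 5 members passed for the averaged wheel, 1 for the label, 7 for sex and 10 for any difference, and the correlation within numbers was 0.02. Numbers shared across sexes did not pair the mice, with 5 of 12 correlations over 0.1.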
